A study of Mus musculus with 28 samples.

Results

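The 9 genes described here are the lysyl oxidases *Lox*, *Loxl1*, *Loxl2*, *Loxl3* and *Loxl4*, the transglutaminase *Tgm2*, and the lysyl hydroxylases *Plod1*, *Plod2* and *Plod3*. They were chosen by function, with earlier results of these data known, and each symbol was found once among the 25719 genes counted. All 9 passed the filter on low counts in both cohorts.

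Tendon gains strength when neighbouring collagen molecules are joined by covalent crosslinks. Lysyl hydroxylases first modify lysines of the collagen chain inside the cell, lysyl oxidases then oxidise lysines and hydroxylysines outside it, and the resulting aldehydes react with neighbouring chains. Transglutaminases form a second kind of bond, between glutamine and lysine side chains of matrix proteins.

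Counts came from bulk RNA-sequencing of tail tendon, with 1 library from each of 28 C57BL/6 mice. Fosl-2(Tg) mice carry a randomly inserted vector with exons 1 to 4 of murine *Fosl2*, an AP-1 transcription factor gene, and its introns, driven by the MHC class I promoter H2Kb and followed by eGFP. Littermates without the transgene served as WT controls. The promoter is not specific to tendon cells. The early cohort, 6 to 8 weeks old, held 7 WT and 8 Fosl-2(Tg) mice, all male. The established cohort, older than 14 weeks, held 6 WT mice, of which 5 were female and 1 male, and 7 Fosl-2(Tg) mice, of which 6 were female and 1 male. Age and sex therefore cannot be told apart in comparisons between cohorts.

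Library totals ranged from 9645598 to 66894396 counts. *Fosl2* itself, counted from the endogenous gene and the transgene together, lay between 58.8 and 136 CPM (counts per 1000000, after TMM scaling) in early WT and between 63.3 and 156 in early Fosl-2(Tg) mice. In the established cohort it lay between 78.0 and 169 CPM in WT and between 121 and 160 in Fosl-2(Tg) mice, and its difference did not pass the test in the early (log2 fold change 0.20 ± 0.24 SE, edgeR FDR = 0.918) or the established cohort (0.38 ± 0.15, FDR = 0.141). In the established cohort, Fosl-2(Tg) mice 1 and 5 stood apart, with 1867 and 989 CPM of *Col1a1* against 9782 to 28248 CPM in the other 5. Their library totals, 10750350 and 9664327 counts, were the lowest of that group, and mouse 5 was its only male. WT mouse 2 of that cohort had the highest *Loxl1*, *Loxl2* and *Plod2* of its group. Some results are also given without these mice, a choice made after seeing the data. Others are given only with them, among them the differences of *Col1a1*, *Col1a2*, *Col3a1* and *Plod1* and those between Fosl-2(Tg) cohorts.

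In the GRCm39 assembly, *Loxl2* (ENSMUSG00000034205) lies on the plus strand at chr14:69846209-69933283 and *Loxl3* (ENSMUSG00000000693) on the plus strand at chr6:83011152-83029543. *Plod1* (ENSMUSG00000019055) lies on the minus strand at chr4:147991574-148021356 and *Plod2* (ENSMUSG00000032374) on the plus strand at chr9:92424119-92490494. On the minus strand, *Loxl1* (ENSMUSG00000032334) lies at chr9:58195014-58220495, *Loxl4* (ENSMUSG00000025185) at chr19:42580711-42601252 and *Tgm2* (ENSMUSG00000037820) at chr2:157958322-157988359. *Plod3* (ENSMUSG00000004846) lies on the plus strand at chr5:137015827-137025502. *Lox* has the identifier ENSMUSG00000024529. Counts are per gene, and the strand setting of the counting is not stated. *Loxl2* shares 943 exonic bases with *R3hcc1* and *Loxl3* shares 1182 with *Htra2*, both on the opposite strand, and without strand such reads cannot be told apart. The same holds for *Plod2* with *B430319G15Rik* (503 bases), *Plod3* with *Znhit1* (575) and *Tgm2* with *Gm20412* (633) and *Rprd1b* (370). It therefore also limits the ratio of *Plod2* to *Plod1* below. *B430319G15Rik* lay between 5.09 and 13.3 CPM in established mice. Among established mice *R3hcc1* lay between 12.6 and 20.8 CPM, with a log2 fold change of -0.28 ± 0.09 (SE, FDR = 0.0761), and *Htra2* between 35.3 and 47.1 CPM, with one of -0.07 ± 0.08 (FDR = 0.560).

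Promoter sequence was available from RefSeq (GRCm38.p6) for 3 members, each as 250 bases before to 50 bases after the start. The 100 bases before the start are shown for all 3, which were set by availability. *Plod1* and *Loxl4* were lower in established than in early Fosl-2(Tg) mice, whereas *Plod3* did not pass that test. Between the WT cohorts only *Plod1* of the 3 passed, and none passed between genotypes within a cohort. A link between promoter letters and levels was not tested. Capitals mark GC boxes, the letters GGGCGG on either strand (CCGCCC on the other).
Plod1, minus strand, chr4:147936777-147936876: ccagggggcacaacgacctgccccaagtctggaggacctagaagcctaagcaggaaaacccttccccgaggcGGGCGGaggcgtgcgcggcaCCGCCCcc
Loxl4, minus strand, chr19:42612807-42612906: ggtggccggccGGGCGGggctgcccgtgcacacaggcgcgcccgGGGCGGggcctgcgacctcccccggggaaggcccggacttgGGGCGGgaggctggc
Plod3, plus strand, chr5:136986919-136987018: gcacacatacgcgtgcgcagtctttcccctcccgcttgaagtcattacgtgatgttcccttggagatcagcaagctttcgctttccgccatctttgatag

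The full windows of *Plod1* and *Loxl4* each held 3 GC boxes, and that of *Plod3* held 0. A GC box occurred in 35.9% of the 27025 promoters of the same length. The AP-1 words TGACTCA and TGAGTCA, which are each other's reverse complement, were found in none of the 3 windows and in 5.17% of all promoters. These are matches of letters only.

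Between genes, levels were compared per kb of exon. In established WT tendon *Lox*, the founding lysyl oxidase, was highest at 417 ± 107 CPM per kb (SD, n = 6), followed by *Loxl2* at 118 ± 27.0 and *Loxl4* at 29.0 ± 5.19. None of these neighbours overlapped, and *Loxl4* did not overlap with *Loxl3* (16.8 ± 1.97). From *Loxl3* down, through *Plod1* (14.3 ± 1.81), *Loxl1* (12.6 ± 9.62), *Plod3* (8.99 ± 0.906), *Tgm2* (5.44 ± 1.74) and *Plod2* (4.80 ± 2.33 CPM per kb), each gene overlapped with the next. In established Fosl-2(Tg) tendon *Lox* was still highest, at 349 ± 74.8 CPM per kb (n = 7). *Loxl2*, at 42.8 ± 17.3, there overlapped with *Loxl4* (20.4 ± 6.07), and *Tgm2* was lowest at 3.95 ± 1.86.

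**Figure D1:**
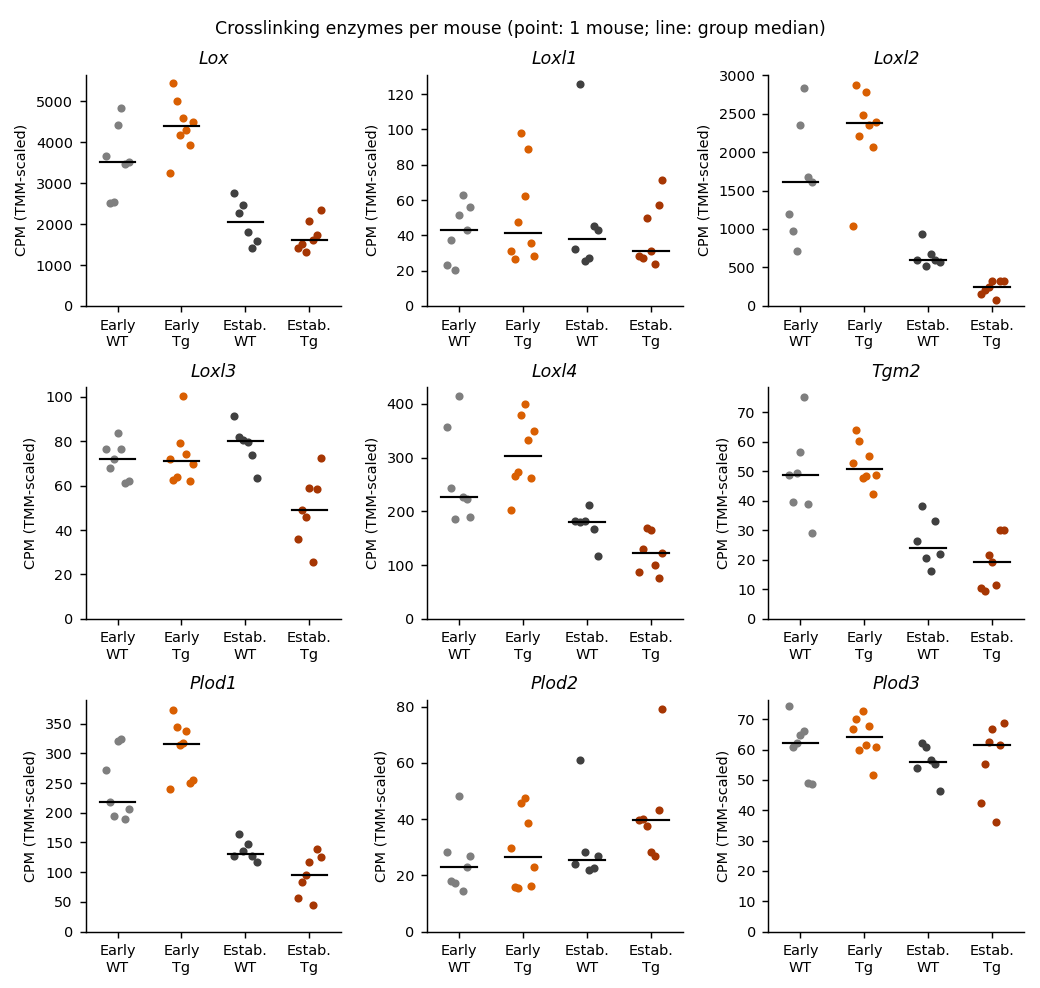
CPM of the 9 enzymes (y axis, TMM-scaled, from 0) in each mouse of the 4 groups (x axis); each point is 1 mouse and each line a group median. In established tendon the Fosl-2(Tg) mice lie between 79.0 and 326 CPM of Loxl2, all below the WT mice, whereas the genotypes overlap for the other 8 enzymes and for all 9 in the early cohort.

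In early tendon no crosslinking enzyme passed the test. All 9 log2 fold changes (Fosl-2(Tg) over WT) were above 0, from 0.03 for *Loxl3* to 0.49 for *Loxl2*, with a median of 0.23 against -0.01 over all genes tested. With edgeR's quasi-likelihood test, 0 of 9 members had an FDR of at most 0.05, against 0.0396% of the 15138 genes tested, and 0 of 9 had an unadjusted p of at most 0.05, against 6.06% of all genes. DESeq2 called 0 of 9 as well.

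*Lox* in early WT mice ranged from 2519.7 to 4826 CPM (median 3505) and in Fosl-2(Tg) mice from 3257 to 5448 (median 4390.3). *Loxl2*, a lysyl oxidase with scavenger receptor domains whose substrates include type IV collagen, ranged from 709 to 2833 CPM (median 1614) and from 1044 to 2868 (median 2373), respectively. Both genotypes overlapped for each gene, with 2 Fosl-2(Tg) mice above the highest WT mouse for *Lox* and 1 for *Loxl2*. The differences were 0.30 ± 0.15 for *Lox* and 0.49 ± 0.27 for *Loxl2* on the log2 scale (SE, FDR = 0.834 for both).

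The other early lysyl oxidases lay lower and overlapped as well. *Loxl1* ranged from 20.4 to 62.8 CPM in WT (median 43.2) and from 26.8 to 97.8 in the Fosl-2(Tg) group (median 41.6), *Loxl3* from 61.2 to 83.9 (median 72.1) and from 62.3 to 101 (median 71.0). *Loxl4* ranged from 187 to 414 CPM in WT (median 226) and from 203 to 401 in the Fosl-2(Tg) group (median 303). Above the highest WT mouse were 2 Fosl-2(Tg) mice for *Loxl1*, 1 for *Loxl3* and 0 for *Loxl4*, and the FDR of these 3 genes lay between 0.889 and 0.973.

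The early lysyl hydroxylases also overlapped. *Plod1*, which hydroxylates lysines of the collagen helix, ranged from 189 to 324 CPM in WT (median 218) and from 241 to 373 in the Fosl-2(Tg) group (median 316), a log2 difference of 0.30 ± 0.14 (FDR = 0.828). *Plod2*, which acts on the telopeptide lysines that direct the type of crosslink, ranged from 14.6 to 48.2 CPM (median 23.0) and from 15.6 to 47.5 (median 26.4). *Plod3*, which also transfers glucose to galactosylhydroxylysine, ranged from 48.6 to 74.4 and from 51.6 to 72.8 CPM. *Tgm2* ranged from 28.9 to 75.1 CPM in WT and from 42.3 to 64.1 in the Fosl-2(Tg) group. For *Plod2*, *Plod3* and *Tgm2* every Fosl-2(Tg) mouse lay within the WT range.

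In established tendon *Loxl2* was lower in Fosl-2(Tg) than in WT mice, and no other crosslinking enzyme passed the test. *Loxl2* ranged from 521 to 938 CPM among the 6 WT mice (median 598) and from 79.0 to 326 CPM in the 7 Fosl-2(Tg) mice (median 247). Every Fosl-2(Tg) mouse was below every WT mouse, a separation in this direction found for 2.33% of the genes tested. The log2 fold change was -1.46 ± 0.28 (SE), which is 2.74-fold lower, with an FDR of 0.0151. Without Fosl-2(Tg) mice 1 and 5 it was -1.19 (FDR = 0.00850), and without WT mouse 2 it was -1.33 (FDR = 0.0348). In bulk tissue, fewer cells of a type and less RNA per cell cannot be told apart.

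Of the 9 members, 1 had an FDR of at most 0.05, against 6.51% of the 15862 genes tested in either direction and 3.37% in the lower direction. *Loxl2* also passed with a log2 change of at least 1 in size, as did 1.96% of all genes. At an unadjusted p of at most 0.05 there were 4 of 9 members, against 26.6% of all genes. The median log2 fold change of the members was -0.46, and that of all genes 0.01.

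*Loxl3*, which encodes another lysyl oxidase of that type, ranged from 63.6 to 91.3 CPM in established WT (median 80.1) and from 25.5 to 72.7 in the Fosl-2(Tg) group (median 49.3). Of the 7 Fosl-2(Tg) mice, 6 were below the lowest WT mouse. Its log2 fold change of -0.66 ± 0.19 had an FDR of 0.0546. DESeq2 gave an FDR of 0.0134 for it, and the values without Fosl-2(Tg) mouse 5 (FDR = 0.0455) or mouse 7 (FDR = 0.0253) were also past the threshold. Of 25 alternatives, 8 passed, and the FDR reached 0.108 in the others.

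*Loxl4* ranged from 117 to 211 CPM in established WT (median 181) and from 76.7 to 169.9 in the Fosl-2(Tg) group (median 122). All 7 Fosl-2(Tg) mice were below the WT mean, 3 of them below the lowest WT mouse, and the log2 fold change was -0.51 ± 0.19 (FDR = 0.113). *Lox* ranged from 1419 to 2756 CPM (median 2046) and from 1327 to 2344 (median 1602), with a log2 fold change of -0.25 ± 0.19 (FDR = 0.412). *Lox* thus overlapped almost entirely between genotypes, with 1 of 7 Fosl-2(Tg) mice below the WT range.

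*Loxl1*, which acts mainly on elastin, ranged from 25.4 to 126 CPM in established WT (median 37.9) and from 24.0 to 71.5 in the Fosl-2(Tg) group (median 31.2). The highest value belonged to WT mouse 2. The log2 fold change was -0.27 ± 0.38 (FDR = 0.681) and 0.25 (FDR = 0.612) without that mouse, so no direction could be given for this gene.

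The 3 lysyl hydroxylases did not share 1 sign in established tendon. *Plod1* ranged from 117 to 165 CPM in WT (median 131) and from 44.2 to 139 in the Fosl-2(Tg) group (median 94.9), a log2 difference of -0.52 ± 0.23 (FDR = 0.161). *Plod2* ranged from 22.0 to 61.1 CPM in WT (median 25.5) and from 26.9 to 79.0 in the Fosl-2(Tg) group (median 39.6), a difference of 0.46 ± 0.28 (FDR = 0.316). Of the 7 Fosl-2(Tg) mice, 4 lay below the lowest WT mouse for *Plod1*, whereas 5 lay above the WT mean for *Plod2*. Without WT mouse 2 the *Plod2* difference was 0.77 (FDR = 0.0857). *Plod3* ranged from 46.3 to 62.0 CPM and from 36.2 to 68.8, a difference of 0.02 ± 0.14 (FDR = 0.955).

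**Figure D2:**
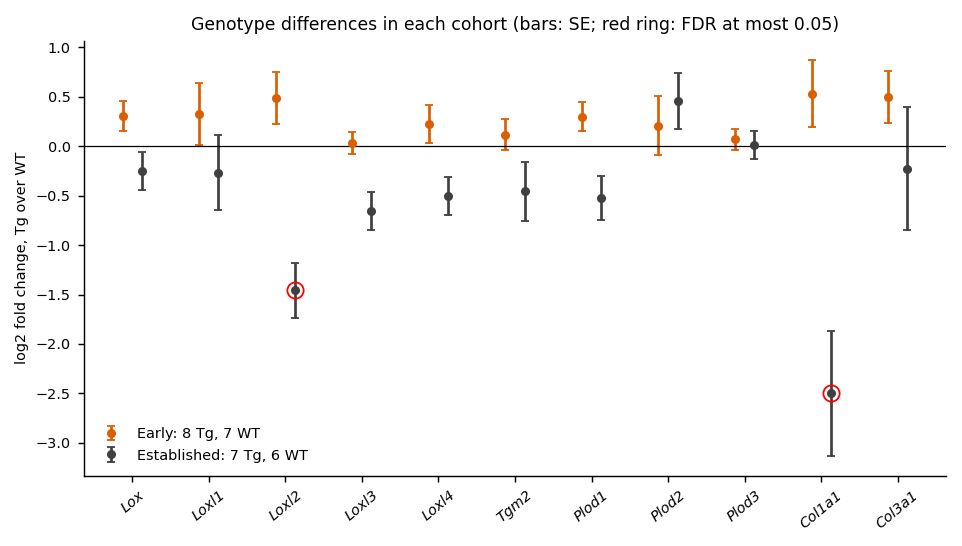
Log2 fold change of Fosl-2(Tg) over WT (y axis; bars are SE from the edgeR fit) for the 9 enzymes, Col1a1 and Col3a1 (x axis) in the early (8 against 7 mice) and the established cohort (7 against 6); red rings mark an FDR of at most 0.05. All early points of the enzymes lie above 0, and of the established enzymes only Loxl2, at -1.46, carries a ring.

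The balance of *Plod2* to *Plod1* was compared as a ratio of counts within each library, which does not depend on scaling. In the established cohort it ranged from 0.150 to 0.371 in WT (median 0.200) and from 0.240 to 0.700 in the Fosl-2(Tg) group (median 0.479), with 5 of 7 Fosl-2(Tg) mice above the highest WT mouse. The mean log2 ratio was -2.23 ± 0.45 in WT (SD, n = 6) and -1.15 ± 0.57 in Fosl-2(Tg) mice (n = 7), which is 2.12-fold higher (exact permutation test, two-sided, p = 0.00583; 0.0117 adjusted over the 4 ratio tests). Without Fosl-2(Tg) mice 1 and 5 the log2 difference was 0.87 (exact p = 0.0195). In the early cohort the ratio ranged from 0.0449 to 0.150 and from 0.0424 to 0.150, and the log2 difference of -0.15 did not pass (exact p = 0.663). The genotype effect differed between cohorts by 1.24 on the log2 scale (exact permutation within cohorts, p = 0.0188). This ratio and that of *Loxl2* to *Lox* were chosen with earlier results of these data known. The adjustment over the 4 ratio tests does not cover that choice.

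*Loxl2* was also set against *Lox*. In the established cohort the ratio of counts ranged from 0.211 to 0.424 in WT (median 0.366) and from 0.0493 to 0.187 in the Fosl-2(Tg) group (median 0.138), with no overlap. The mean log2 ratio differed by -1.33 (-1.65 ± 0.46 SD in WT, n = 6, and -2.98 ± 0.66 in Fosl-2(Tg), n = 7, exact permutation test, two-sided, p = 0.000583, the smallest that these group sizes allow; adjusted 0.00233). Without Fosl-2(Tg) mice 1 and 5 it was -1.02 (exact p = 0.00649). In the early cohort the ratio ranged from 0.281 to 0.587 and from 0.320 to 0.605, a log2 difference of 0.25 (exact p = 0.182). With early mice of the same number taken as pairs, which leaves out Fosl-2(Tg) mouse 8, this difference was 0.24 and did pass (exact sign-flip test, p = 0.0313). Whether equal numbers mark pairs is not known. The genotype effects of the cohorts differed by -1.58 (exact permutation within cohorts, p = 0.000403). For neither ratio was a share over all genes computed. How many other genes would move as far against *Plod1* or *Lox* is therefore not known.

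**Figure D3:**
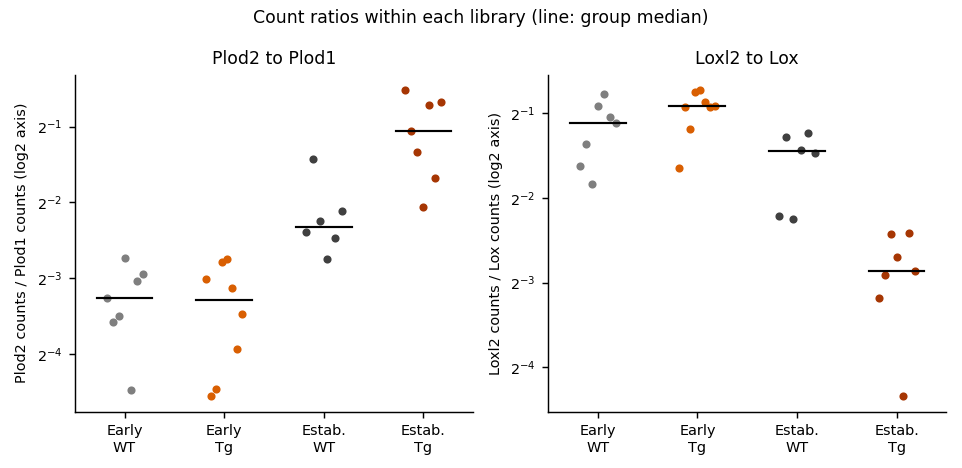
Ratio of Plod2 to Plod1 counts (left) and of Loxl2 to Lox counts (right) in each mouse (y axes, log2 scale) by group (x axis), with lines at group medians. In established tendon the Plod2 to Plod1 ratio is higher in Fosl-2(Tg) mice (median 0.479 against 0.200) and the Loxl2 to Lox ratio lower (0.138 against 0.366), with no overlap for the latter.

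Within the lysyl oxidase family, per kb of exon, *Lox* made up 69.7% ± 5.99 of the summed level in established WT (SD, n = 6) and 80.7% ± 4.48 in established Fosl-2(Tg) mice (n = 7). *Loxl2* made up 20.3% ± 4.42 and 9.69% ± 3.04. In early tendon *Loxl2* accounted for 25.9% ± 5.18 in WT (n = 7) and 29.3% ± 3.83 in Fosl-2(Tg) mice (n = 8). Of the summed lysyl hydroxylases, *Plod1* made up 51.1% ± 2.67 in established WT and 38.0% ± 5.95 in established Fosl-2(Tg) mice, and *Plod2* 16.6% ± 4.87 and 25.8% ± 6.32. These shares describe the same counts as the ratios.

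The genotype effect on *Loxl2* and *Loxl3* differed between cohorts in a single fit of the 4 groups. The interaction (established minus early effect) was -1.95 ± 0.41 for *Loxl2* (log2, SE, FDR = 0.00702) and -0.70 ± 0.22 for *Loxl3* (FDR = 0.0477), so 2 of 9 members were called, against 7.43% of 16082 genes. *Plod1* was just outside the threshold (-0.83 ± 0.27, FDR = 0.0568). The *Loxl3* call was lost without a filter on low counts (FDR = 0.0627), without the 2 established males (-0.61, FDR = 0.0596) and without Fosl-2(Tg) mice 1 and 5 (-0.50, FDR = 0.0902), while that of *Loxl2* held (-1.82, FDR = 0.00904 and -1.69, FDR = 0.0112).

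Established WT mice had lower levels than early WT mice for 4 of 9 members, against 3.48% of all genes. These were *Loxl2* (-1.32 ± 0.30, FDR = 0.0110), *Tgm2* (-0.88 ± 0.25, FDR = 0.0364), *Plod1* (-0.85 ± 0.20, FDR = 0.0128) and *Lox* (-0.79 ± 0.18, FDR = 0.0108). In Fosl-2(Tg) mice 6 of 9 were lower in the established cohort, against 22.0% of all genes. *Loxl2* fell by 3.27 on the log2 scale (SE 0.31, FDR = 2.65e-08), *Plod1* by 1.68, *Tgm2* by 1.47, *Lox* by 1.36, *Loxl4* by 1.34 and *Loxl3* by 0.56. *Plod2* was 0.54 ± 0.30 higher and did not pass (FDR = 0.136), nor did *Loxl1* and *Plod3*. Age and sex both differ between the cohorts.

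Relative to *Col1a1* counts, all 9 enzymes were higher in established Fosl-2(Tg) tendon, and so was nearly every gene. *Col1a1*, which encodes the alpha 1 chain of type I collagen, ranged from 44250.2 to 100078 CPM in established WT (median 74327) and from 989 to 28248 in the Fosl-2(Tg) group (median 10237), with no overlap and a log2 fold change of -2.50 ± 0.63 (FDR = 0.0356). *Col1a2*, which encodes the other type I chain, had a log2 fold change of -2.23 ± 0.57 (FDR = 0.0367). *Col3a1*, which encodes type III collagen, had one of -0.23 ± 0.62 (FDR = 0.840). WT mouse 2 had the highest *Col3a1* of its group, 2861 CPM against a group median of 647.

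*Lox* counts per 1000 *Col1a1* counts ranged from 22.7 to 35.8 in established WT (median 27.6) and from 70.2 to 1620.1 in the Fosl-2(Tg) group (median 148). *Loxl2* ranged from 6.75 to 12.9 (median 8.92) and from 11.3 to 84.4 (median 22.0). *Plod2* ranged from 0.275 to 0.611 (median 0.397) and from 1.00 to 27.2 (median 3.91). Genotypes did not overlap for *Lox* and *Plod2*, nor for *Loxl3*, *Loxl4*, *Tgm2*, *Plod1* and *Plod3*. For *Loxl1* and for *Loxl2*, 6 of 7 Fosl-2(Tg) mice were above the highest WT mouse. The share of all genes without overlap on this scale was not computed. *Col1a1* itself did not overlap between genotypes, so this separation shows nothing particular to the enzymes.

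With the *Col1a1* count as offset in edgeR, 9 of 9 members were higher, as were 99.3% of all genes, so this count shows nothing particular to the enzymes. On the mean log2 ratio per mouse, the median over all genes was 3.16. *Loxl2* had the smallest rise of the 9 at 1.60, whereas *Plod2*, at 3.63, was the highest, and *Plod3* (3.15), *Loxl1* (3.03) and *Lox* (2.93) lay near the median. *Loxl4*, *Tgm2*, *Plod1* and *Loxl3* lay between 2.44 and 2.62. Exact permutation tests for each member gave unadjusted p from 0.00117 to 0.00408, all with the same denominator. The fitted offset difference for *Loxl2* of 1.99 ± 0.83 (FDR = 0.0164) was 0.99 (FDR = 0.00742) without Fosl-2(Tg) mice 1 and 5, and that for *Lox* of 3.89 was 2.03.

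Against *Col3a1* instead, 0 of 9 members passed (edgeR), against 0.340% of all genes, with *Loxl2* at -1.04 (FDR = 0.543) and *Plod2* at 1.13 (FDR = 0.543). On the mean log2 ratio per mouse to *Col3a1*, *Loxl2* differed by -1.10 (exact permutation test, unadjusted p = 0.0344) and *Plod2* by 0.94 (p = 0.0676), beside a median of 0.47 over all genes. A change of collagen moves every gene by the same amount on this scale, and *Loxl2* minus the median of all genes was -1.57 with either collagen.

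In the early cohort *Col1a1* ranged from 101009 to 350241 CPM in WT (median 119406) and from 137158 to 388941 in the Fosl-2(Tg) group (median 265136), a log2 difference of 0.53 ± 0.34 (FDR = 0.853). All 9 enzymes were then below 0 relative to *Col1a1*, with fitted differences from -0.61 (*Loxl3*, FDR = 0.117) to -0.11 (*Loxl2*, FDR = 0.769), beside a median of -0.71 over all genes. None of the 9 passed, against 1.29% of all genes. Without Fosl-2(Tg) mouse 1, or without WT mouse 5, 2 members passed, *Loxl3* (-0.76, FDR = 0.0426 and -0.74, FDR = 0.0353) and *Plod3* (-0.75, FDR = 0.0451 and -0.70, FDR = 0.0427), while 65.6% and 74.7% of all genes passed in these fits, so the count shows nothing particular to the enzymes.

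**Figure D4:**
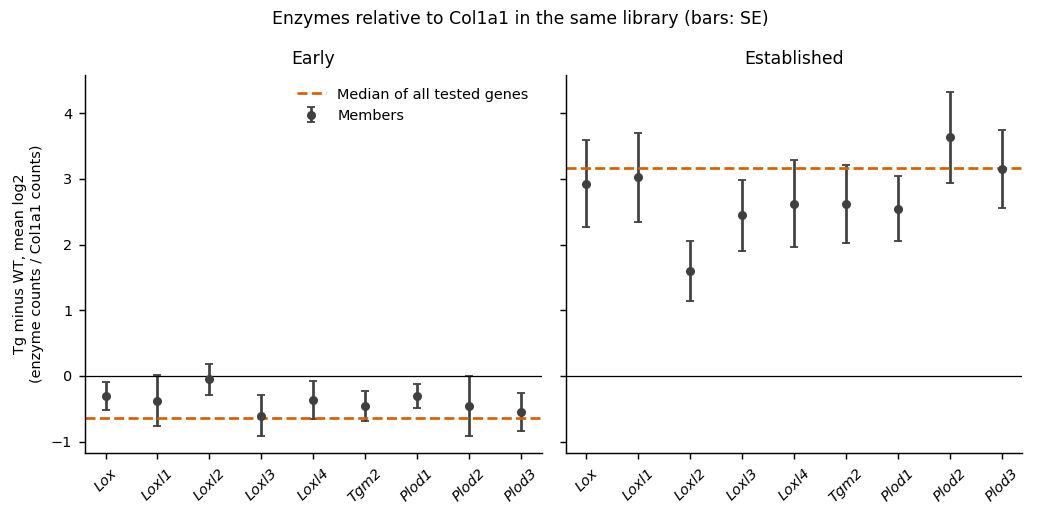
Difference between genotypes (y axis, Fosl-2(Tg) minus WT) in the mean log2 ratio of enzyme to Col1a1 counts for the 9 enzymes (x axis) in each cohort; bars are SE and the dashed line is the median over all tested genes. Among established mice Loxl2, at 1.60, lies below the dashed line at 3.16, and Plod2, at 3.63, lies above it.

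Among 32 other genes of collagen modification, processing and assembly, 0 passed in the early cohort and 6 in the established, all 6 lower in Fosl-2(Tg) mice, against 3.37% of all genes, with median log2 fold changes of 0.21 and -0.41. The 6 were the procollagen N-proteinase *Adamts2* (-1.25 ± 0.22, FDR = 0.0128), *Pcolce*, an enhancer of C-propeptide cleavage (-1.16 ± 0.24, FDR = 0.0189), *Fkbp10*, a chaperone that supports telopeptide lysyl hydroxylation (-1.004 ± 0.21, FDR = 0.0207), elastin *Eln* (-0.85 ± 0.20, FDR = 0.0268), the prolyl 3-hydroxylase *P3h1* (-0.65 ± 0.17, FDR = 0.0393) and the prolyl 4-hydroxylase subunit *P4ha1* (-0.91 ± 0.25, FDR = 0.0473). *P3h4*, a partner of *Plod1* in the endoplasmic reticulum, had -0.53 ± 0.18 (FDR = 0.0852), and *Bmp1*, which cleaves the propeptides of collagen and of lysyl oxidase, -0.60 ± 0.22 (FDR = 0.115). The copper transporters *Slc31a1* (-0.29, FDR = 0.0528) and *Atp7a* (0.11, FDR = 0.479), which bear on the copper that lysyl oxidases need, did not pass.

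Of 9 transglutaminases, *Tgm2*, *Tgm4* and *F13a1* were tested in both cohorts and *Tgm1* in the established cohort, and none passed the test between genotypes within a cohort (0 of 3 and 0 of 4). *Tgm2* ranged from 16.1 to 38.3 CPM in established WT (median 24.0) and from 9.56 to 30.1 in the Fosl-2(Tg) group (median 19.1), a log2 difference of -0.46 ± 0.30 (FDR = 0.341). *F13a1*, which encodes the A subunit of factor XIII, ranged from 159 to 304 CPM and from 252 to 347, a difference of 0.37 ± 0.14 (FDR = 0.114). In the early cohort *F13a1* had -0.51 ± 0.17 (FDR = 0.647), and its interaction of 0.87 ± 0.23 passed (FDR = 0.0238). *F13a1* is also made by macrophages. Of 10 macrophage markers, 9 were below 0 in the early and 10 above 0 in the established cohort, with 1 called higher. *Tgm1* lay between 0.641 and 2.63 CPM in established mice, and *Tgm4* between 10.9 and 14.7.

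Levels of cell type markers were measured beside these results in the established cohort. Summed CPM of 8 tenocyte markers, which include *Col1a1* and *Fmod*, ranged from 63537.8 to 132042 in WT and from 2743 to 55677 in the Fosl-2(Tg) group, with 3 of 8 lower (*Col1a1*, *Tnmd* and *Scx*) and all 8 below 0. Summed CPM of 16 skeletal muscle markers ranged from 264 to 60768 and from 177 to 17659.9, with 0 of 16 called, all 16 below 0 (median log2 fold change -1.72) and none at 0 throughout a group. Summed CPM of 7 erythroid markers ranged from 8.94 to 20.1 and from 10.3 to 127. Of these, 4 were tested and all 4 were above 0, with a median log2 fold change of 2.38, 3 at an unadjusted p of at most 0.05 and 0 called (edgeR). Summed CPM of 10 macrophage markers ranged from 585 to 824 and from 713 to 1081. The part of tenocyte, erythroid and macrophage content in the enzyme differences was not tested. With a muscle score as covariate the *Loxl2* difference was -1.55 (FDR = 0.00641). With muscle, erythroid and keratinocyte genes removed it was -1.44 (FDR = 0.0134). That removal leaves the *Loxl2* counts as they were, so it cannot show whether such cells bear on the difference.

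Across all 28 libraries, which differ in cohort and genotype, the 2 genes whose log2 CPM was most like that of each member were ranked among 14523 genes. *Plod1* was most like *Bmp1* (Pearson's r = 0.990) and *Mmp23* (0.986), and *Loxl2* most like *Tmed3* (0.986) and *Copz2* (0.985). *Lox* came closest to *Tbc1d30* (0.927) and *Asns* (0.917), *Tgm2* to *Tmsb10* (0.928) and *Arhgap24* (0.924), and *Loxl3* to *Ssc5d* (0.921) and *Ptx4* (0.915). *Loxl1* came closest to *Adamtsl1* (0.920) and *Basp1* (0.883), *Loxl4* to *Tspan3* (0.892) and *Ndfip1* (0.884), and *Plod3* to *Tnfrsf1a* (0.887) and *Galnt10* (0.887). *Plod2* was most like *B430319G15Rik* (0.885), which shares 503 exonic bases with it on the opposite strand, and *Fosl2* (0.804).

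Among the members, *Loxl2* and *Plod1* ran closest together (r = 0.959), and both followed *Col1a1* (0.951 and 0.959). *Plod2* stood apart from them, with r of -0.28 to *Loxl2*, -0.25 to *Plod1* and -0.32 to *Col1a1*. *Loxl1* was closer to *Col3a1* (0.735) than to *Col1a1* (0.268). These correlations are descriptions over libraries that differ in age, sex and genotype at once.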

How the data were processed

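Bulk RNA-sequencing counts of tail tendon from 28 mice, 1 library per mouse, were analysed. The deposited values are raw counts per gene: the authors depleted ribosomal RNA, mapped reads with STAR to GRCm39 (GENCODE release M26) and counted them with featureCounts. Strand and multi-mapping settings are not given in the sources used here. GENCODE release M39 gave a symbol for 25505 of the 25719 identifiers.

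Genes were filtered with filterByExpr (minimum count 10, minimum total 15), scaled by TMM and tested with the quasi-likelihood test of edgeR 4.0.16 in R 4.3.3, and p-values were adjusted (FDR, Benjamini-Hochberg) across every tested gene. Genotypes were compared within each cohort without covariates. A single fit of the 4 groups gave the interaction and the comparisons between cohorts. Ratios to *Col1a1* used its log count as offset, and 0.5 was added to enzyme counts for ratios per mouse. Single ratios were compared by exact permutation, two-sided. Summed CPM used the TMM scaling of all 28 libraries, and log2 CPM a prior count of 2. Library totals, from 9645598 to 66894396 counts, limit the precision of low genes. WT mice were littermates of Fosl-2(Tg) mice, but which mice shared a litter is not given in the sources used here. The p-values measure the spread between these mice.

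In the early cohort, deviations of same-numbered WT and Fosl-2(Tg) mice correlated in all 7 pairs (r from 0.145 to 0.405). The numbers were also run as pairs there, a choice from the data rather than the labels. Mice of different numbers were not compared in this way, so these r cannot show that equal numbers mark pairs. The main tests were left unpaired, and the paired value is given where it changed a call. In the established cohort r ranged from -0.223 to 0.690, which did not bear out pairs, and the replicate block was an alternative there as well.

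Named genes were the 9 members, *Col1a1*, *Col1a2* and *Col3a1*, modification genes with an FDR of at most 0.05, detected transglutaminases, and the 2 genes most correlated with each member. *Fosl2*, *P3h4*, *Bmp1*, *Slc31a1*, *Atp7a* and genes that overlap members were named outside this rule, after their values were seen. The members, lists and ratios were chosen with earlier results of these data known. Alternatives were DESeq2 1.42.0, RLE scaling, other filters, limma 3.58.1 voom with quality weights, all libraries in 1 fit and the replicate block. Others were a muscle score or sex as covariate, removal of muscle, erythroid and keratinocyte genes, other denominators and each library left out. The fits were tested on simulated data. Figures were drawn with matplotlib 3.10.9.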

Additional observations from a re-analysis of the deposited data

Results flagged for a closer look

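Of 36 groups of 1 member and 1 set of mice, 7 had a mouse that stood far from the others by Dixon's test, which chance gives in about 1 group of 20. Established WT mouse 2 was the highest of its group for *Loxl1* (126 CPM), *Loxl2* (938 CPM) and *Plod2* (61.1 CPM). Established Fosl-2(Tg) mouse 7 was the highest of its group for *Plod2* (79.0 CPM). In the early cohort, Fosl-2(Tg) mouse 1 was lowest for *Loxl2* (1044 CPM), Fosl-2(Tg) mouse 5 highest for *Loxl3* (101 CPM) and WT mouse 4 highest for *Plod2* (48.2 CPM).

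The genotype effect differed between the cohorts for 4 quantities, by the interaction in edgeR or by exact permutation of genotype within cohorts. These were *Loxl2* (-1.95 on the log2 scale; FDR = 0.00702), *Loxl3* (-0.70; FDR = 0.0477), the *Plod2* to *Plod1* ratio (1.24; exact p = 0.0188) and the *Loxl2* to *Lox* ratio (-1.58; exact p = 0.000403). Age and sex differ between the cohorts and cannot be told apart here.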

How the results depend on the processing

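The *Loxl2* difference in established tendon kept its direction and stayed past the threshold in all 25 alternatives (log2 -1.66 to -1.19, FDR 1.51e-05 to 0.0353), and its interaction in all 5. *Loxl3* in established tendon passed in 8 of 25. The number of established members called was 1, with 6.51% of all genes called. It was 2, *Loxl2* and *Loxl3*, with DESeq2 (9.92% of all genes), all 28 libraries in 1 fit (10.3%), voom with quality weights (12.5%), a muscle score (10.5%) or sex (9.23%) as covariate. It was 3 with the replicate block (5.83%), *Loxl4* being the other (FDR = 0.0458). With each library left out it ranged from 1 to 2, with 2.26% to 7.43% of all genes called. The block changed no early count of calls, and relative to *Col1a1* it left 8 of 9 established members, without *Loxl2* (1.62, FDR = 0.0801), and 97.6% of all genes, as *Tnmd* as denominator left 8 (*Loxl2* 1.08, FDR = 0.116) and 98.3%. The interaction called 1 member, not 2, without a filter (3.97% of all genes), without the 2 established males (4.50%), and without Fosl-2(Tg) mice 1 and 5 (3.99%), a choice made after seeing the data. With DESeq2 it called 3 (7.97% of all genes), *Plod1* being the other (FDR = 0.0307). Between WT cohorts DESeq2 called 5 members, not 4 (6.99% of all genes in either direction), *Loxl4* being the other (FDR = 0.0433). Relative to *Col1a1*, 0 to 2 early members and 0.0591% to 74.7% of all genes were called with each library left out. Another denominator moves all genes alike. With *Col3a1* the fitted median of all established genes went from 4.14 to 0.70, 0 established members and 0.340% of all genes were called, and *Loxl2* (-1.04), *Loxl3* (-0.26), *Plod1* (-0.15) and *Tgm2* (-0.0033) were below 0. The early *Loxl2* to *Lox* difference was 0.24 with same-numbered mice as pairs, which leaves out Fosl-2(Tg) mouse 8 (replicate block, exact sign-flip p = 0.0313). It was 0.15 to 0.34 with each library left out, where it passed without Fosl-2(Tg) mouse 1 (exact permutation p = 0.0495). Other sign changes were of uncalled values. The early *Plod2* to *Plod1* difference ranged from -0.34 to 0.00030 with each library left out. *Loxl3* in the early cohort was -0.0058 with the muscle covariate and -0.048 to 0.078 with each library left out. *Loxl1* in the established cohort was 0.11 with voom and -0.46 to 0.25 with each library left out. *Plod3* in the established cohort was -0.069 with the block, -0.031 with the muscle covariate, -0.010 with sex, and -0.042 to 0.10 with each library left out, and its interaction was 0.0095 without the males and 0.10 without Fosl-2(Tg) mice 1 and 5. Early values relative to *Col1a1* changed sign with *Tnmd* as denominator, chosen after seeing the data, for *Lox* (0.31), *Loxl1* (0.43), *Loxl2* (0.54), *Loxl4* (0.19), *Tgm2* (0.049), *Plod1* (0.27) and *Plod2* (0.27), with *Col3a1* for *Lox* (0.021) and *Loxl2* (0.21), and with *Col1a2* for *Loxl2* (0.044). *Loxl2* relative to *Col1a1* was -0.20 to 0.061 in the early cohort with each library left out. Unless stated, the cause was not tested. Depth limits *Plod2* and *Tgm2* most, whose lowest library counts were 142 and 160.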
